A study of Mus musculus with 24 samples.

Results

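The genes described here encode RNA polymerase II (Pol II) and the proteins that help it start, pause and elongate. They are all gene rows of the count tables whose symbol is Polr2 followed by a letter from a to m, or begins with Med or Taf and a digit, with Nelf, or with Supt and a digit. The rule gave 80 of 55291 gene rows, with 2 pseudogene symbols left out, and it used names and no measured value. By role they are 12 Pol II subunits, the Pol II-associated Gdown1 (Polr2m), 7 subunits of the Mediator head, 10 of its middle and scaffold, 9 of its tail and 4 of its kinase module, 17 TATA-binding protein associated factors (TAFs) of TFIID, 5 subunits of SAGA, 4 of NELF, 5 of DSIF, SPT6 and FACT, 4 TAFs of the Pol I factor SL1, the FET-family protein Taf15 and the antisense transcript Med9os.

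Pol II cannot find a promoter alone. TFIID, built from TBP and the TAFs, recognizes the promoter, and Mediator links activators bound at enhancers to the polymerase through its tail, middle and head, with a kinase module that can detach. Soon after the start, NELF and DSIF hold the polymerase in a paused state, and SPT6 and FACT help it pass through nucleosomes. In the mouse, the embryo inherits such proteins and their mRNAs from the oocyte, and major activation of its own genome takes place at the 2-cell stage, when maternal mRNAs are also being cleared.

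The study asked whether transcription of MERVL, an endogenous retrovirus expressed around the 2-cell stage, is required for preimplantation development. Control embryos were zygotes injected in the male pronucleus with a scrambled antisense oligonucleotide (ASO), and MERVL-KD embryos were injected in the same way with a mix of 3 ASOs against MERVL, at 20 µM, before culture in KSOM medium. The parents were 8 weeks old and were B6D2F1 (BDF1) mice according to the protocols, while the strain label reads BDF2. Each library held total RNA of 30 embryos without zona pellucida, taken at the 2-cell stage (1.5 days post-coitum, dpc), the 4-cell stage (2.5 dpc) or the 8-cell stage (2.5 dpc), with the stage judged by eye, and there were 2 libraries for each of the 6 groups. In RNA from whole embryos, fewer cells of a kind and less RNA per cell cannot be told apart.

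Libraries held 28167085 to 41482526 counts, and the 80 genes took 0.769 to 0.889% of the gene counts. The internal part of the targeted retrovirus, MERVL-int, made up 6.33 and 6.57% of the counts of control 2-cell embryos and 0.157 and 0.143% of those of MERVL-KD 2-cell embryos. At the later stages it reached at most 0.0544% in MERVL-KD and at least 1.07% in control libraries. Cumulus and granulosa markers summed to 2.33 to 6.98 CPM (counts scaled to a common library size) over 8 genes. Of these Ptx3 was at 0 in 11 of 12 libraries, Fshr in 8, Inha in 7 and Amh in 4. Star and Foxl2 were above 0 in all 12 libraries. Star reached 4.345 CPM, and at the 2-cell stage it had 59 and 78 counts in control and 183 and 142 in MERVL-KD. Oocyte markers (9 genes) summed to 1035 and 1139 CPM in control and 666 and 755 CPM in MERVL-KD at the 2-cell stage. A 2-cell embryo list (6 genes) summed to 458 and 538 CPM in control and 260 and 315 CPM in MERVL-KD at that stage. Markers of later blastomeres (6 genes) summed to 682 and 739 CPM in control and 535 and 584 CPM in MERVL-KD at the 8-cell stage. These sums lean on the most abundant genes. Bmp15 reached 614.5 CPM in the oocyte list, while Cdx2, in the later list, reached at most 2.344 CPM. Sox2, also in the later list, had 194 and 194 counts in control 2-cell libraries and 12 and 7 in control 4-cell libraries. Their part in the results below was not tested.

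The injected oligonucleotides are shown because 1 of the 80 genes carries their matching sequence. In GRCm38, the MERVL ASOs matched 1903 places with at most 2 mismatches and the scrambled ASO matched 1. A match lay in the transcribed strand of 176 of 55291 gene rows, among them 1 of the 80 genes, Nelfa (chr5:33897916-33936413, minus strand), and there the matches were intronic. MERVL-ASO3 matched at chr5:33909872-33909891 and MERVL-ASO1 at chr5:33911697-33911716 with 0 mismatches. MERVL-ASO2 matched at chr5:33910124-33910143 with 1 mismatch, T7G, counted from the 5′ end of the oligonucleotide with the base of the oligonucleotide named before that of the site. The mismatched base is the capital letter in the sequences, each 20 bases long and written 5′ to 3′.
MERVL-ASO1: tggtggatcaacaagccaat
MERVL-ASO2: catttgTctgtttaccacga
MERVL-ASO3: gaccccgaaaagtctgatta
Scramble-ASO: agcgcgggtattgaaccagg

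Promoters were read from RefSeq windows of GRCm38.p6 that run from 250 bases before to 50 bases after a start, and 82 windows belonged to 67 of the 80 genes. They were searched on both strands. The ETS core CCGGAAG was in 29.3% of these windows and in 8.86% of all 32851 windows. The NRF1 core TGCGCA was in 22.0% against 7.76%, and the YY1 core AAGATGG in 15.9% against 6.34%. TATAAA was in 13.4% against 13.6%, and CCAAT in 32.9% against 37.4%. These shares describe letters and not bound factors.

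The 130 bases before a RefSeq start are shown for a gene of each main course described below. Every match of the named motif on either strand is in capitals. Where a gene had several windows, the window with the most matches is shown. The Med15 stretch lies inside the counted gene row (chr16:17651208-17732891). The Polr2h stretch begins after the start of its row (chr16:20717665-20722267). Polr2h (chr16:20717696-20717825, plus strand) and Med17 (chr9:15279907-15280036, minus strand) rose from the 2-cell to the 4-cell stage in control embryos. Med15 (chr16:17722901-17723030, minus strand) and Taf3 (chr2:10048610-10048739, minus strand) fell. Supt3 (chr17:44777036-44777165, plus strand) was lower in MERVL-KD embryos at the 4-cell and 8-cell stages. The capitals mark the NRF1 core in Polr2h and Supt3 and the ETS core in Med17, Med15 and Taf3.
Polr2h: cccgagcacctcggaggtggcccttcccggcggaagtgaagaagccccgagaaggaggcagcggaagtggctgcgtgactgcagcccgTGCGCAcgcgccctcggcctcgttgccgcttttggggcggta
Med17: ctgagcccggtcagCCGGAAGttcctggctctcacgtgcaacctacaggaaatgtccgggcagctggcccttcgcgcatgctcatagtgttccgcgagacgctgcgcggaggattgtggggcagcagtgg
Med15: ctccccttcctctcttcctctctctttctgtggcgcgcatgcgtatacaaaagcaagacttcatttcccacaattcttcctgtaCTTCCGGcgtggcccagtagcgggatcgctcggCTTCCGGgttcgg
Taf3: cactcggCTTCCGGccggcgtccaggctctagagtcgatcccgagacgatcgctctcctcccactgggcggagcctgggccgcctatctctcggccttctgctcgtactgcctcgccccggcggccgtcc
Supt3: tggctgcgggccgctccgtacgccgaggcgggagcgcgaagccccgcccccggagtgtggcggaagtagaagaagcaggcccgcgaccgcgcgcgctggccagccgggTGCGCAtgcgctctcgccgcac

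Levels are given as RPKM, the CPM divided by the gene length in kilobases, which allows genes of different length to be set side by side. In control embryos the median of the 80 genes was 13.8 RPKM in 2-cell, 14.1 RPKM in 4-cell and 14.3 RPKM in 8-cell libraries. At these stages 4, 5 and 5 genes were below 1 RPKM, and 46, 51 and 57 were at 10 RPKM or more. Taf7, a TFIID subunit, had the highest level at the 2-cell stage, with 103 and 121 RPKM in the control libraries. The male germ-cell homolog Taf7l had 2 to 30 counts per library and Taf7l2 0 to 14 counts. Taf9 had 5 to 34 counts per library, and 73.8% of its exon bases are shared with Ak6 on the same strand, so its level is uncertain. Supt4a and Supt4b are near-identical copies. Exons of other genes also share bases with Taf1d (10.1%, small RNA genes), Med12 (9.72%, Gm21986) and, on the opposite strand, Polr2c (18.1%, Dok4) and Taf1c (16.7%, Dnaaf1).

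Roles differed in how their levels moved across control stages. The median of the 12 Pol II subunits went from 23.1 RPKM in 2-cell to 36.0 in 4-cell and 38.7 RPKM in 8-cell embryos. Although they belong to the same complex, these subunits spanned 4.98 RPKM (Polr2i) to 53.1 RPKM (Polr2c) in 2-cell embryos, and in 4-cell embryos 4.23 RPKM (Polr2g) to 45.5 RPKM (Polr2k). The Mediator head had a median of 5.46, 9.92 and 11.6 RPKM at the 3 stages, and the tail 18.3, 11.5 and 13.4 RPKM. NELF moved from 8.82 to 16.1 and 19.6 RPKM, and DSIF, SPT6 and FACT from 23.5 to 51.4 and 60.2 RPKM. TFIID stayed between 11.8 and 12.1 RPKM as a median, although its subunits moved apart.

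From the 2-cell to the 4-cell stage in control embryos, 39 of 78 tested genes rose and 22 fell. Of all genes tested, 30% rose and 31.9% fell. With a change of at least 2-fold, 18 of the 80 genes rose and 7 fell, against 23.3% and 26.7% of all genes tested. The median log2 fold change was 0.37 for the 78 genes and -0.033 for all genes. Scaled to library size alone, 44 rose and 19 fell, and the medians were 0.51 and 0.11, so the distance between the genes described and all genes was 0.401 on the main scale and 0.402 on the other. These calls are from edgeR's quasi-likelihood test at an adjusted p under 0.05, as are all calls below, with p-values adjusted over all features tested (Benjamini-Hochberg). With 2 libraries a group, p-values measure only the spread between these libraries.

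Most Pol II subunits rose, 7 of 12, while 2 fell. Polr2k, a small zinc-binding subunit shared by all 3 nuclear polymerases, stood at 10.4 and 11.3 RPKM at the 2-cell stage and at 44.2 and 46.8 RPKM at the 4-cell stage, and its log2 fold change was 2.09 ± 0.151 (SE, adjusted p = 2.53e-08). Polr2h, another shared subunit, stood at 9.06 and 10.3 RPKM and then at 33.6 and 31.9 RPKM, with a log2 fold change of 1.79 ± 0.126 (adjusted p = 2.06e-08). Both genes were thus well apart from their own earlier level. Polr2c went the other way, from 51.8 and 54.5 RPKM to 13.3 and 14.9 RPKM, and fell by 1.89 ± 0.0903 on the log2 scale (adjusted p = 3.81e-10). Polr2a, the catalytic subunit, rose by 0.43 on the log2 scale (adjusted p = 0.00203), from 28.4 and 28.3 RPKM to 33.9 and 41.1 RPKM. Polr2m, whose product Gdown1 binds Pol II and makes it depend on Mediator, had 10.7 and 11.6 RPKM at the 2-cell stage and 51.4 and 47.8 RPKM at the 4-cell stage, a log2 fold change of 2.18 ± 0.102 (adjusted p = 3.08e-10).

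**Figure D1:**
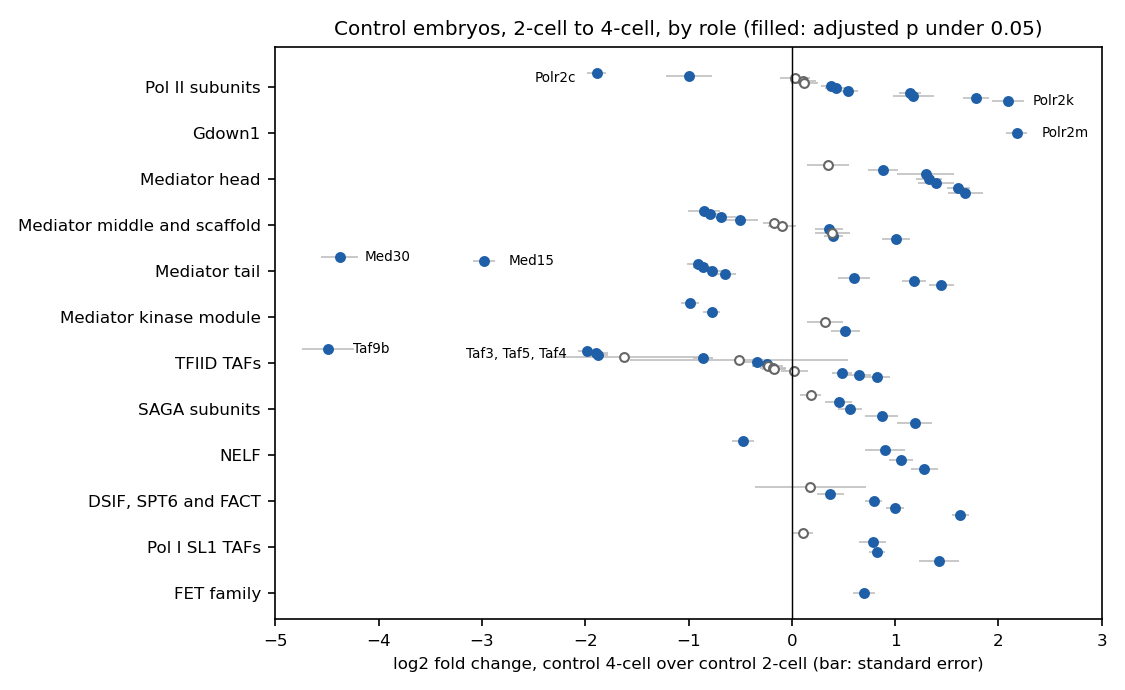
Log2 fold change from the 2-cell to the 4-cell stage in control embryos (x axis, 4-cell over 2-cell) for each tested gene by role (y axis); points are fitted values, bars are standard errors, and filled points passed an adjusted p of 0.05. The Mediator head lies to the right of 0 in all of its 7 genes, whereas Taf9b (-4.49), Med30 (-4.38) and Med15 (-2.98) lie far to the left.

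Mediator did not move as a unit. In the head, 6 of 7 subunits rose and 0 fell. Med8 stood at 2.47 and 2.91 RPKM and then at 8.03 and 8.93 RPKM (log2 fold change 1.68 ± 0.169, adjusted p = 8.97e-07), and Med17, the scaffold of the head, at 5.86 and 6.38 RPKM and then at 17.7 and 19.2 RPKM (1.61 ± 0.112, adjusted p = 1.7e-08). In the tail, which meets the activators, 3 of 9 rose and 6 fell. Med30 (chr15:52712408-52730564) had 68.5 and 58.4 RPKM at the 2-cell stage, the highest level in the tail, and 2.82 and 3.19 RPKM at the 4-cell stage, and it fell by 4.38 ± 0.181 on the log2 scale (adjusted p = 1.02e-10). Med15 (chr16:17651208-17732891), for which a promoter stretch is printed above, fell from 21.1 and 19.3 RPKM to 2.59 and 2.43 RPKM. The fall was 2.98 ± 0.107 on the log2 scale (adjusted p = 2.98e-11). Med24, in the same tail, went from 5.06 and 5.69 RPKM to 12.05 and 11.96 RPKM and rose by 1.18 (adjusted p = 4.91e-07). In the middle and scaffold 3 of 10 rose and 4 fell, and in the kinase module 1 of 4 rose and 2 fell.

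In TFIID too, more genes fell than rose, 7 of 16 tested TAFs against 3. Taf9b (chrX:106206883-106221158), a paralog of Taf9, had 13.3 and 13.1 RPKM at the 2-cell stage and 0.521 and 0.638 RPKM at the 4-cell stage, and fell by 4.49 ± 0.254 on the log2 scale (adjusted p = 2.04e-09). Taf3, which reads the promoter mark H3K4me3, fell from 57.4 and 56.1 RPKM to 14.1 and 14.2 RPKM, by 1.98 ± 0.0898 on the log2 scale (adjusted p = 2.31e-10). Taf5 had 48.5 and 44.2 RPKM and then 12.8 and 11.7 RPKM, and fell by 1.90 ± 0.119 on the log2 scale (adjusted p = 6e-09). Taf4 fell by 1.87 on the log2 scale (adjusted p = 4.77e-10). In SAGA, a coactivator that shares TAFs with TFIID, 4 of 5 genes rose and 0 fell. The largest of these gains was that of Supt3, 1.19 on the log2 scale (adjusted p = 3.79e-05).

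Among the genes described here, most pausing and elongation factors rose. Of DSIF, SPT6 and FACT, 4 of 5 rose and 0 fell. Supt5, the large subunit of DSIF, had 21.9 and 25.1 RPKM at the 2-cell stage and 72.0 and 71.2 RPKM at the 4-cell stage, with a log2 fold change of 1.63 ± 0.0858 (adjusted p = 9.73e-10). In NELF 3 of 4 rose and Nelfa fell, by 0.47 on the log2 scale (adjusted p = 0.00151). Of the SL1 TAFs, which serve Pol I at ribosomal DNA, 3 of 4 rose, and Taf15 rose by 0.70.

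**Figure D2:**
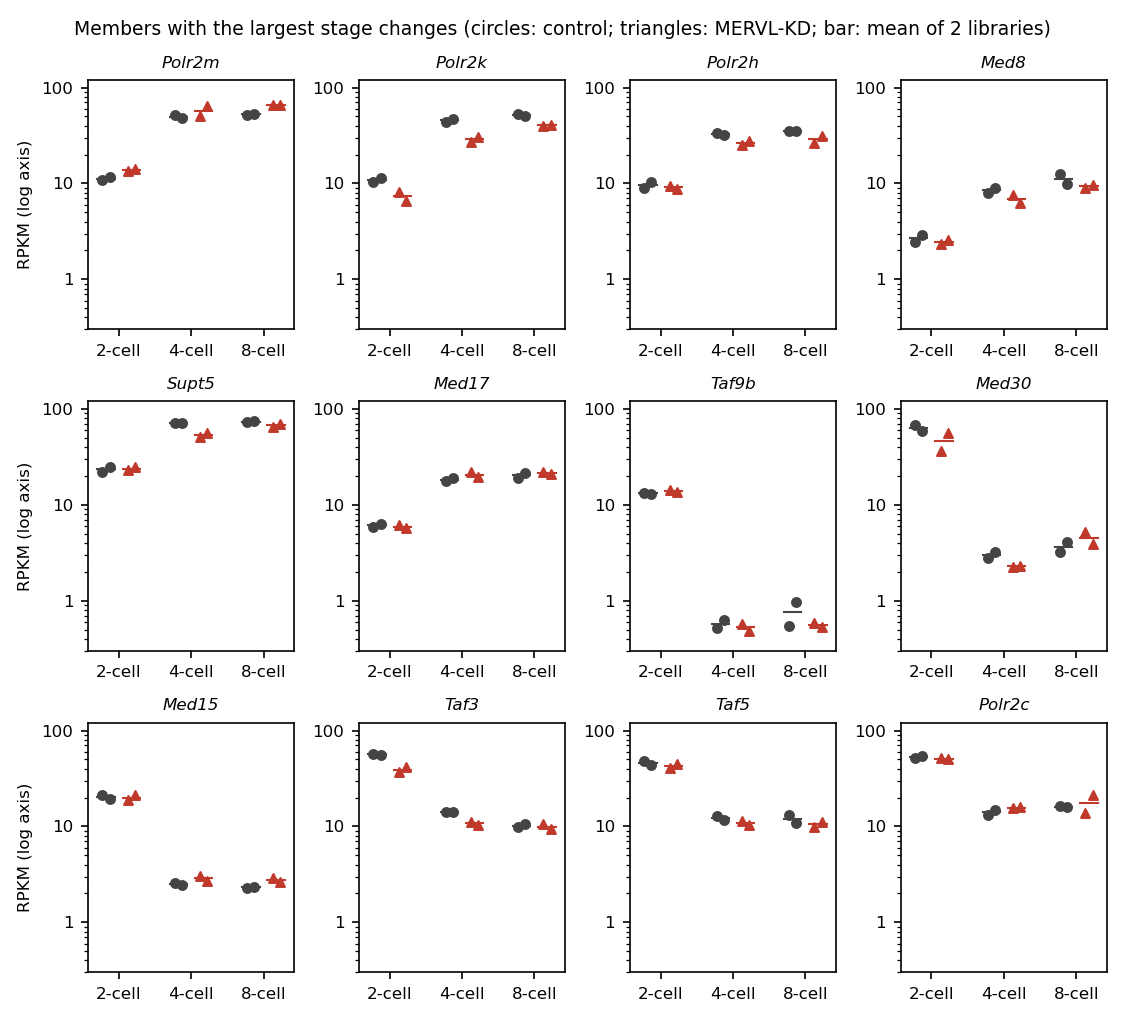
RPKM (y axis, log scale) of the 12 genes with the largest rise or fall from the 2-cell to the 4-cell stage in control embryos, by stage (x axis), in control (circles) and MERVL-KD (triangles) libraries, with a bar at the mean of 2 libraries. Med30 goes from 68.5 and 58.4 RPKM to about 3 RPKM and stays low at the 8-cell stage, and Polr2m stays near 50 RPKM after its rise.

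The balance of Taf4b and Taf4 shifted over this step. Taf4b, a paralog of Taf4 known for its role in germ cells, made up 48.3 and 48.9% of the summed RPKM of Taf4b and Taf4 in control 2-cell libraries (48.6% ± 0.428, SD, n = 2) and 75.2 and 73.8% at the 4-cell stage. This came with Taf4 at 48.6 and 52.6 RPKM and then at 13.0 and 14.2 RPKM, while Taf4b had 45.4 and 50.4 RPKM and then 39.4 and 40.2 RPKM (fell by 0.24 on the log2 scale, adjusted p = 0.022). The Taf4b call was lost without control 2-cell library 2 (adjusted p = 0.251) or any 1 of the 4-cell and 8-cell control libraries (0.0857 to 0.0993), and with library size alone (0.312). The kinase-module paralogs moved more evenly: Med13 fell by 0.99 (adjusted p = 2.07e-07) and Med13l by 0.78 (adjusted p = 2.26e-06), and the share of Med13l lay between 22.9 and 29.4% in all 12 libraries. Med12l rose by 0.52 (adjusted p = 0.00557, but 0.0965 without control 4-cell library 1), and Med12 had a log2 fold change of 0.32 (adjusted p = 0.129). Taf7 fell by 0.86 (adjusted p = 3.13e-06).

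From the 4-cell to the 8-cell stage, far fewer genes passed in control embryos: 4 of 78 rose and 3 fell, with 4.88% and 3.63% of all genes tested. Both of these stages were taken at 2.5 dpc and the 2-cell stage at 1.5 dpc, so the steps did not span the same time. Med26, through which Mediator recruits elongation factors, rose by 0.66 ± 0.154 on the log2 scale (adjusted p = 0.0188), Nelfcd by 0.48 ± 0.113 (adjusted p = 0.019), Taf10 by 0.41 ± 0.115 (adjusted p = 0.0426) and Taf1d by 0.32 ± 0.077 (adjusted p = 0.0217). Taf3 fell by 0.47 ± 0.0883 (adjusted p = 0.00604), Taf4b by 0.32 ± 0.0843 (adjusted p = 0.0338) and Med13 by 0.32 ± 0.0863 (adjusted p = 0.0369). Scaled to library size alone, 0 rose and 10 fell, and the median of all genes was -0.21. Of these 7 calls, 5 were lost without control 4-cell library 2 and 6 without control 4-cell library 1 or either control 8-cell library, and Taf10 also without control 2-cell library 2 (adjusted p = 0.0566).

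At the 2-cell stage, MERVL-KD embryos had lower mRNA of 7 of 78 tested genes and higher mRNA of 2. That is 11.5% of the genes tested here, and 14.1% of all genes tested passed (7.39% lower, 6.7% higher). All 9 changes were smaller than 2-fold (of all genes tested 4.37% were higher and 2.24% lower by 2-fold or more) and lay between 0.401 and 0.738 in size on the log2 scale. The genes came from the Mediator tail, TFIID, NELF, SL1, the FET family and Gdown1. Polr2a had a log2 fold change of 0.13 (adjusted p = 0.375). With library size alone it was 0.42 and passed as higher (adjusted p = 0.00279). Of the 12 Pol II subunits 0 passed in edgeR on the main scale and 0 in DESeq2, with 2 under an unadjusted p of 0.05. At that unadjusted threshold 21 of 78 genes lay, with 27% of all genes tested. Above 0 were 32 of 78, with 51.2% of all genes tested. The oocyte and 2-cell marker sums given above were also lower in these MERVL-KD libraries, with 3 of 9 and 4 of 6 genes passing as lower. Of the cumulus and granulosa markers 1 of 3 tested, Star, passed as higher and 0 as lower, with 6.7% of all genes tested higher. Star did not pass in a fit of all 12 libraries (adjusted p = 0.128).

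Med27 (chr2:29346819-29524793), a tail subunit, had 37.5 and 34.0 RPKM in control and 18.8 and 21.7 RPKM in MERVL-KD embryos, and fell by 0.74 ± 0.104 on the log2 scale (adjusted p = 0.000169). Taf3 had 57.4 and 56.1 RPKM in control and 36.8 and 41.7 RPKM in MERVL-KD embryos (fell by 0.45 ± 0.0858, adjusted p = 0.00221). Taf4b had 45.4 and 50.4 RPKM in control and 33.6 and 34.1 RPKM in MERVL-KD embryos (fell by 0.42 ± 0.0854, adjusted p = 0.00367). Its paralog Taf4 had a log2 fold change of 0.12 (adjusted p = 0.4), and the Taf4b share of the pair was 38.6 and 40.3% in MERVL-KD embryos, below both control values. Nelfa, the gene with ASO matches in its introns, had 21.7 and 24.1 RPKM in control and 14.4 and 16.3 RPKM in MERVL-KD embryos (fell by 0.49 ± 0.104, adjusted p = 0.00461).

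Taf1a, a subunit of SL1, had 32.8 and 36.7 RPKM in control and 23.7 and 23.6 RPKM in MERVL-KD embryos (fell by 0.47 ± 0.102, adjusted p = 0.00547). Med28 fell by 0.42 ± 0.106 (adjusted p = 0.0137) and Taf15 by 0.48 ± 0.130 (adjusted p = 0.0213). The genes that rose were Med24, with 5.06 and 5.69 RPKM in control and 8.14 and 6.60 RPKM in MERVL-KD embryos (0.54 ± 0.130, adjusted p = 0.0105), and Polr2m, with 10.7 and 11.6 RPKM in control and 13.6 and 14.1 RPKM in MERVL-KD embryos (0.40 ± 0.127, adjusted p = 0.0468). Med24 and Med27 are both tail subunits and moved in opposite directions.

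Scaling changed the calls of this comparison. With library size alone, the median of all genes was 0.30 on the log2 scale, 24 of the 78 genes were higher and 1 was lower, and Taf3, Taf4b, Nelfa, Taf1a, Med28 and Taf15 no longer passed, while the median of the genes described lay 0.048 below that of all genes on both scales. In a fit of all 12 libraries Nelfa (adjusted p = 0.0524) and Polr2m (0.097) did not pass. Polr2m lost its call without any 1 of the 4 libraries (adjusted p = 0.0904 to 0.241), Med24 without MERVL-KD library 1 (0.118), Med28 without control library 2 (0.0713) or MERVL-KD library 1 (0.0754), and Taf15 without control library 1 (0.0823) or MERVL-KD library 1 (0.0662).

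At the 4-cell stage, 15 of 78 genes were lower in MERVL-KD embryos and 1 was higher, 20.5% of those tested, and of all genes tested 10.8% passed (5.84% lower, 4.92% higher). Lower genes were found in the polymerase itself (4 of 12 subunits, 0 higher), in every part of Mediator, in TFIID, in SAGA, in DSIF and SPT6 and in SL1. With library size alone 1 of the 12 polymerase subunits (Polr2k) passed as lower, and Polr2a (adjusted p = 0.0694), Polr2e (0.083), Polr2i (0.0807), Supt6 (0.0671), Med24 (0.0592) and Taf3 (0.115) did not pass. The change was 2-fold or more in 1 gene, Supt3, with 1.88% of all genes tested lower and 2.66% higher by as much. Above 0 were 29 of 78 genes, with 51.9% of all genes tested, and 28 of 78 were under an unadjusted p of 0.05, with 25.1% of all genes tested. The median log2 fold change was -0.11 for the 78 genes and 0.025 for all genes, and with library size alone it was -0.043 and 0.089, with 9 genes lower and 1 higher. In these 4-cell libraries the blastomere markers summed to 532 and 509 CPM in control and 401 and 432 CPM in MERVL-KD (1 of 6 genes passing as lower), and the oocyte markers to 199 and 204 CPM in control and 224 and 232 CPM in MERVL-KD (0 of 9 passing in edgeR, 2 higher in DESeq2, 7 under an unadjusted p of 0.05).

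Supt3 (chr17:44777152-45119290), a SAGA subunit that can contact TBP, had 4.46 and 5.25 RPKM in control 4-cell embryos and 1.72 and 1.23 RPKM in MERVL-KD embryos, or 649 and 623 counts against 258 and 174. It fell by 1.71 ± 0.219 on the log2 scale (adjusted p = 0.00054). The control level of Supt3 had been 2.30 and 2.02 RPKM at the 2-cell stage, so the MERVL-KD 4-cell level lay below that of control 2-cell embryos, and in MERVL-KD embryos the 2-cell level was 1.73 and 1.49 RPKM. The other 4 SAGA subunits also had log2 fold changes below 0 and did not pass.

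Within Mediator, Med27 again fell, by 0.78 ± 0.121 (adjusted p = 0.00199), from 18.6 and 18.8 RPKM in control to 11.4 and 10.4 RPKM. Med1, the subunit contacted by nuclear receptors, had 15.3 and 16.1 RPKM in control and 9.98 and 10.7 RPKM in MERVL-KD embryos (fell by 0.60 ± 0.0976, adjusted p = 0.00261). Med6, of the head, fell by 0.47 ± 0.109 (adjusted p = 0.0172). Med12l, of the kinase module, fell by 0.70 ± 0.163 (adjusted p = 0.018), and its share of the Med12l and Med12 sum was 30.9 and 40.9% against 52.6 and 54.0% in control. Opposite-strand exons cover 17.3% of the exon bases of Med12l, and the strand setting of the counting is not given in the sources used here. Med24, higher in MERVL-KD embryos at the 2-cell stage, had 12.05 and 11.96 RPKM in control and 9.01 and 8.21 RPKM in MERVL-KD 4-cell embryos and fell by 0.47 ± 0.112 (adjusted p = 0.02).

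Of the polymerase, Polr2k had 44.2 and 46.8 RPKM in control and 27.0 and 30.7 RPKM in MERVL-KD embryos (fell by 0.65 ± 0.154, adjusted p = 0.0201), and Polr2i fell by 0.75 ± 0.213 (adjusted p = 0.0437), with 26.8% of its exon bases under opposite-strand exons of Tbcb. Polr2a had 33.9 and 41.1 RPKM in control and 27.6 and 28.9 RPKM in MERVL-KD embryos (fell by 0.40 ± 0.105, adjusted p = 0.031), and Polr2e fell by 0.39 ± 0.102 (adjusted p = 0.0316). For the elongation factors, Supt5 had 72.0 and 71.2 RPKM in control and 51.5 and 55.9 RPKM in MERVL-KD embryos (fell by 0.41 ± 0.0875, adjusted p = 0.0118), and Supt6 fell by 0.37 ± 0.087 (adjusted p = 0.0204).

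Among the TAFs, Taf1a fell by 0.62 ± 0.106 (adjusted p = 0.0034), from 37.1 and 36.7 RPKM to 23.7 and 24.1 RPKM. Taf10, a subunit common to TFIID and SAGA, had 7.98 and 8.03 RPKM in control and 4.86 and 4.75 RPKM in MERVL-KD embryos (fell by 0.73 ± 0.139, adjusted p = 0.00642), and 45.9% of its exon bases lie opposite exons of Ilk. Taf3 fell by 0.38 ± 0.105 (adjusted p = 0.0404), and Taf1d rose by 0.30 ± 0.0848 (adjusted p = 0.0412). Nelfa had 16.1 and 16.3 RPKM in control and 7.67 and 12.9 RPKM in MERVL-KD embryos, which differed between themselves, and its log2 fold change of -0.65 did not pass (adjusted p = 0.082). Of the pair Taf4b and Taf4, the Taf4b share was 74.6 and 74.2%, within the range of the control values.

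Supt3, Med27, Med1, Taf1a and Taf10 passed with any 1 library left out. The calls in all numbered 10 without control 4-cell library 1, where Supt5 (adjusted p = 0.0667), Supt6 (0.0972), Med12l (0.123), Med6 (0.0749), Med24 (0.103), Polr2e (0.0801), Polr2i (0.209), Taf3 (0.201) and Taf1d (0.347) were lost, 9 without control library 2, where Polr2a (0.377), Polr2e (0.308), Polr2k (0.0854), Supt6 (0.11), Med6 (0.12), Med24 (0.0885), Taf3 (0.216) and Taf1d (0.103) were lost, and Polr2k was also lost without MERVL-KD library 1 (0.051) and Polr2i (0.149) and Taf3 (0.0825) without MERVL-KD library 2.

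**Figure D3:**
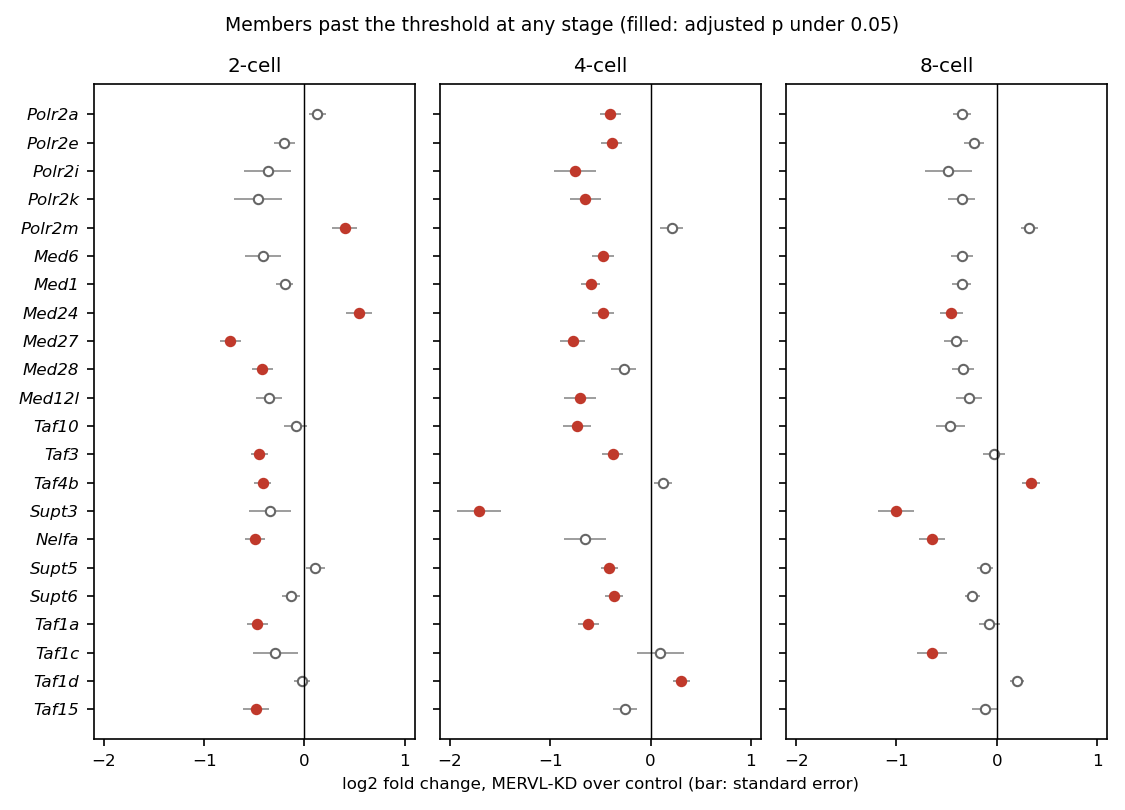
Log2 fold change of MERVL-KD over control (x axis) at each stage for the 22 genes that passed at 1 stage or more, ordered by role (y axis); points are fitted values, bars are standard errors and filled points passed an adjusted p of 0.05. Supt3 is the point farthest to the left in 4-cell (-1.71) and 8-cell (-1.004) embryos, and Med24 lies right of 0 at the 2-cell stage and left of 0 afterwards.

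At the 8-cell stage, 4 of 77 tested genes were lower in MERVL-KD embryos and 1 was higher, with 3.56% and 1.5% of all genes tested (5.06% in all). Supt3 had 4.56 and 4.79 RPKM in control and 2.18 and 2.45 RPKM in MERVL-KD embryos and fell by 1.004 ± 0.176 on the log2 scale (adjusted p = 0.00757). It was the only gene of the 77 to pass with 2-fold or more, with 1.06% of all genes tested lower and 0.641% higher by as much. Nelfa had 16.1 and 18.1 RPKM in control and 11.9 and 9.83 RPKM in MERVL-KD embryos (fell by 0.65 ± 0.129, adjusted p = 0.0152). Taf1c, of SL1, had 8.54 and 8.04 RPKM in control and 4.96 and 5.58 RPKM in MERVL-KD embryos (fell by 0.65 ± 0.151, adjusted p = 0.0311).

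Med24 had 14.6 and 12.3 RPKM in control and 10.1 and 9.41 RPKM in MERVL-KD 8-cell embryos (fell by 0.45 ± 0.116, adjusted p = 0.0451). Taf4b was the gene that rose, from 32.5 and 30.9 RPKM to 41.1 and 38.7 RPKM (0.34 ± 0.0881, adjusted p = 0.0468), and its share of the pair was 77.6 and 75.2% against 72.5 and 71.4% in control. Polr2a had a log2 fold change of -0.34 (adjusted p = 0.0527). It passed as lower with a minimum of 1 count in 1 library (adjusted p = 0.0293) or 10 in every library (0.0481). Halved counts (0.0486) and a replicate block (0.0326) gave the same call. With library size alone, DESeq2 size factors, repeat families left out or all 12 libraries in 1 fit, Polr2a did not pass. Above 0 lay 17 of 77 genes, with 50.5% of all genes tested, and the medians were -0.14 and 0.0057. Under an unadjusted p of 0.05 were 28 of 77, with 19.5% of all genes tested. Of the 12 Pol II subunits 11 lay below 0, with a median of -0.30, and 0 passed in edgeR and 1 (Polr2a, lower) in DESeq2, with 6 under an unadjusted p of 0.05. The blastomere marker sum given above was also lower in these MERVL-KD libraries, with 2 of 6 genes passing as lower.

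With library size alone, 42 of 77 genes lay below 0, the median was -0.014 and that of all genes 0.13, with 1 gene lower and 6 higher, and Nelfa, Taf1c and Med24 did not pass. DESeq2 called 12 genes, with 7.18% of all genes tested. With a library left out, the median was -0.20 to -0.14, and that of all genes was -0.014 to 0.037. Taf1c did not pass in the fit of all 12 libraries (adjusted p = 0.0938). Supt3 passed under every alternative run, while Taf4b and Taf1c lost their call without control library 1 (adjusted p = 0.132 and 0.142) or 2 (0.254 and 0.0618), Taf4b also without MERVL-KD library 1 (0.0641), Med24 without control library 1 (0.332) and Nelfa without control library 2 (0.0614).

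The paralogs of the kinase module and TFIID that did not pass showed no common direction. Med12 had log2 fold changes of 0.46, 0.32 and 0.036 from the earliest stage to the latest (adjusted p = 0.0601, 0.296 and 0.943). Med12l was opposite in sign at each stage, with -0.35, -0.70 and -0.28. At the 2-cell stage Med12 passed as higher with a minimum of 1 count in 1 library (adjusted p = 0.0227) or 10 in every library (0.041). It also passed there with halved counts (0.0485) and library size alone (0.0025). With library size alone Taf4, Taf9b, Med13 and Med13l passed as higher at that stage too, and Med13 and Med13l at the 8-cell stage. Med13 had -0.0092, 0.20 and 0.26, and Med13l 0.12, 0.19 and 0.26 (adjusted p of 0.0964 or more for both genes). Taf4 had 0.12, 0.13 and 0.0027, and Taf7 -0.19, 0.086 and -0.13. Taf9b, nearly absent after the 2-cell stage in control embryos, had 0.16, -0.13 and -0.44, and Taf9 had -0.82, -0.32 and -0.98 on few counts (adjusted p of 0.398 or more for both genes).

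**Figure D4:**
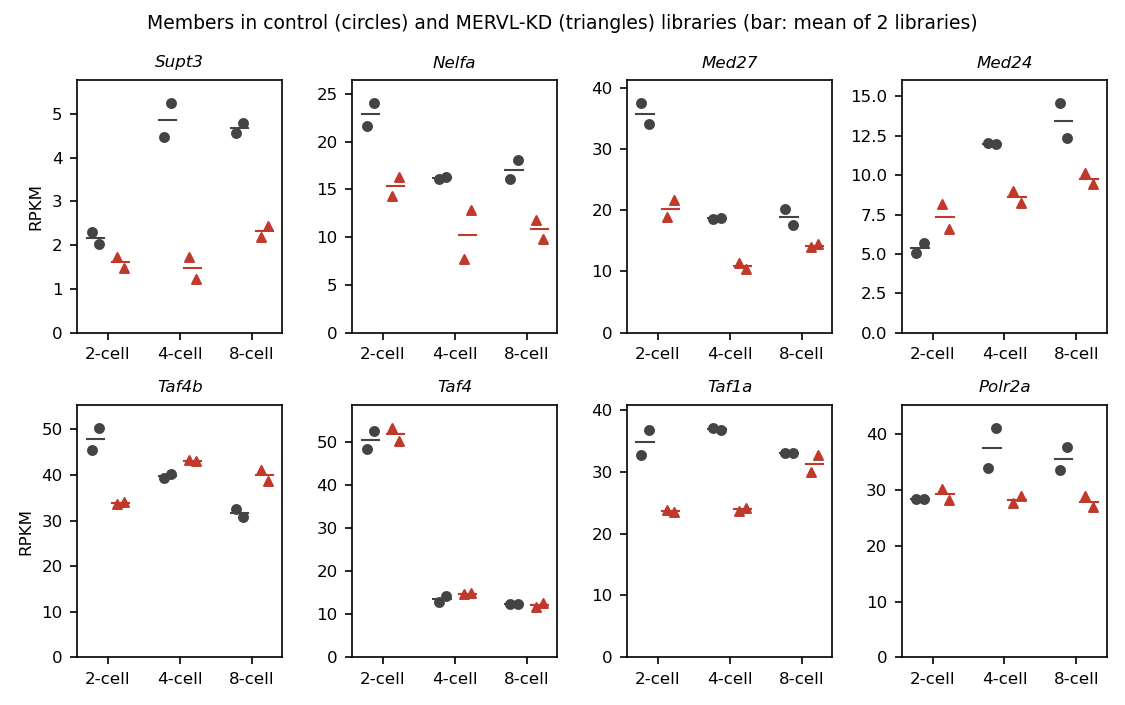
RPKM (y axis, from 0) by stage (x axis) of 8 genes in control (circles) and MERVL-KD (triangles) libraries, with a bar at the mean of 2 libraries. Supt3 rises to 4.46 and 5.25 RPKM in control 4-cell libraries and stands at 1.72 and 1.23 RPKM in the MERVL-KD ones, while Taf4 goes from 48.6 to 53.4 RPKM in the 2-cell libraries to 13.0 to 15.0 RPKM in the 4-cell libraries of both groups.

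Across stages, 22 genes passed in at least 1 of the 3 comparisons with control, 7 in 2 or more and 1, Med24, in all 3. Log2 fold changes were below 0 at all stages for 31 of 77 genes tested at each, and above 0 for 9. These counts across stages were not made for all genes tested, so they cannot be set against a share of all genes. The change of the MERVL-KD effect from the 2-cell to the 4-cell stage was tested itself, in a fit of all 12 libraries. It was -0.94 ± 0.182 for Med24 (adjusted p = 0.00445), 0.62 ± 0.130 for Taf4b (adjusted p = 0.00846) and -1.29 ± 0.298 for Supt3 (adjusted p = 0.0157), 3 of 79 genes, with 2.51% of all genes tested positive and 1.64% negative.

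With library size alone this difference passed for 9 genes, all negative, with a median of -0.26 for the 79 genes and -0.25 for all genes, and not for Taf4b (adjusted p = 0.177). The Supt3 call was lost without control 2-cell library 2 (adjusted p = 0.0682), MERVL-KD 2-cell library 1 (0.0745) or control 4-cell library 2 (0.0682), and the Taf4b call without control 2-cell library 2 (0.054) or MERVL-KD 4-cell library 2 (0.0613). Between the 4-cell and the 8-cell stage, edgeR called 0 of 79 genes, and 0.624% of all genes tested passed. At an unadjusted p under 0.05 there were 8 of 79, with 11.4% of all genes tested, and Supt3 had a difference of 0.70 (adjusted p = 0.34). No other tool was run on this contrast.

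The other genes of the pathway showed scattered changes. TFIIH, the factor that opens the promoter and phosphorylates the polymerase, rose in 9 of 10 genes from the 2-cell to the 4-cell stage in control embryos (median log2 fold change 1.50), whereas TBP, TFIIA, TFIIB, TFIIE and TFIIF had 6 of 11 genes lower and 2 higher (median -0.69), with 30% of all genes tested higher and 31.9% lower. In MERVL-KD embryos, Tbp itself, the TATA-binding protein, had 5.33 and 5.93 RPKM in control and 2.80 and 2.82 RPKM at the 2-cell stage and fell by 0.92 ± 0.107 (adjusted p = 2.86e-05), and Gtf2f2 fell by 0.46 (adjusted p = 0.0196). Gtf2f1, the other subunit of TFIIF, rose by 0.66 at the 4-cell stage (adjusted p = 0.00096). In TFIIH, Mnat1 fell by 0.79 at the 2-cell stage (adjusted p = 0.0105) and Ccnh by 0.67 at the 4-cell stage (adjusted p = 0.0122), each the only gene of 10 to pass at that stage. Calls were lost for Gtf2f2 without control library 2 (adjusted p = 0.228) and with library size alone (0.328), Mnat1 without MERVL-KD library 1 (0.0619) and with library size alone (0.0663), and Ccnh without control library 1 (0.0548).

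P-TEFb is the kinase that releases paused Pol II. Of P-TEFb and its regulators, 3 of 13 rose and 6 fell from the 2-cell to the 4-cell stage in control embryos. Of all genes tested 30% rose and 31.9% fell. In MERVL-KD embryos 3 of the 13 fell at the 2-cell stage, with 7.39% of all genes tested lower. They were Aff1, by 0.44 (adjusted p = 0.0016), Mepce, by 0.40 (adjusted p = 0.0146), and Ccnt1, by 0.34 (adjusted p = 0.0406), and with library size alone none of the 3 passed (adjusted p = 0.183, 0.473 and 0.776). At the 4-cell stage Aff1 fell by 0.31 (adjusted p = 0.0383) and Hexim1, an inhibitor of P-TEFb, rose by 0.55 (adjusted p = 0.0385). Of the 6 assembly factors Rpap3 fell by 0.43 (adjusted p = 0.008, and 0.323 with library size alone) and Gpn3 rose by 0.34 (adjusted p = 0.0417) at the 2-cell stage, while later 0 passed in edgeR and 0 in DESeq2, with 2 and 0 under an unadjusted p of 0.05. With a library left out, the calls of Aff1 at the 4-cell stage (adjusted p up to 0.249 without control library 2, and above the threshold without control library 1 or MERVL-KD library 1), Hexim1 (0.221 without control library 2, 0.154 without MERVL-KD library 2), Mepce (0.0746 without MERVL-KD library 1), Ccnt1 (0.263 without control library 2, 0.0619 and 0.0764 without either MERVL-KD library), Rpap3 (0.0504 without control library 2) and Gpn3 (0.354 without control library 1, 0.0927 and 0.0825 without either MERVL-KD library) were lost. The Mediator kinases and cyclin C (3 genes) had 0 calls at any stage in edgeR, with 1 under an unadjusted p of 0.05 in 4-cell and in 8-cell embryos, and DESeq2 called 0, 1 and 1 from the earliest stage to the latest.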

How the data were processed

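Per the labels and the study's methods, total RNA of 12 libraries was prepared with a stranded kit, ribosomal fragments were depleted, and paired-end reads were aligned to GRCm38 by STAR 2.5.3a, with only unique alignments kept. The authors used featureCounts with the GENCODE annotation and RepeatMasker families, and deposited the raw counts. The strand setting is not given in the sources used here. Of genes with 1 to 50 counts, 71.8 to 74.7% had even counts, so both mates of a pair appear to have been counted and counts overstate fragments.

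Counts were tested in R 4.3.3 with edgeR 4.0.16 (filterByExpr, TMM, robust quasi-likelihood fit, Benjamini-Hochberg adjustment), stage by stage for MERVL-KD against control, over 6 control libraries for stages, and over 12 libraries for the difference between stages. The filter kept 78, 78, 77, 78 and 79 of the 80 genes (2-cell, 4-cell, 8-cell, control stages, difference). Med9os was never tested and Taf7l2 only in the difference, and Taf7l was not tested at the 8-cell stage. RPKM used TMM over all libraries and the deposited gene lengths. SE is the log2 fold change divided by the square root of F. The test was checked on simulated data for the 2-cell comparison alone. There every gene had the same spread, and genes with few counts were given no change.

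Named genes were the 8 smallest adjusted p in each direction per MERVL-KD comparison, all changes of at least 2-fold, the 6 largest changes in each direction between stages, the 5 smallest in a difference, and Polr2a with the paralog pairs. Other genes given by value were chosen after their values were seen. The members and lists were chosen with earlier results of these data known. Alternatives were DESeq2 1.42.0, other scalings and filters, halved counts, a replicate block, 1 common fit, and each library left out. The 12 ATAC libraries were not used.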

Additional observations from a re-analysis of the deposited data

Results flagged for a closer look

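The MERVL-KD effect differed between the 2-cell and the 4-cell stage, by a test of the difference itself, for 3 of the 79 genes. The log2 fold change of Med24 was lower at the 4-cell stage by a difference of -0.94 (adjusted p = 0.00445 in edgeR), from 0.54 to -0.47 in the fits of each stage. That of Supt3 was lower by a difference of -1.29 (adjusted p = 0.0157), from -0.34 to -1.71. That of Taf4b was higher by a difference of 0.62 (adjusted p = 0.00846), from -0.42 to 0.12. Each group held 2 libraries, so no group was large enough for a search for single outlying libraries.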

How the results depend on the processing

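The number of genes passing at the 2-cell stage was 9, 25 with library size alone, 12 with a minimum of 1 count in 1 library, and 8 to 10 in the other fits that kept every library. At the 4-cell stage it was 16, 10 with library size alone, and 9 to 19 with a library left out. At the 8-cell stage it was 5, 12 with a minimum of 1 count in 1 library, 8 with every library required to hold 10 counts or more, 8 with halved counts, and 12 in DESeq2. Between control stages it was 61 from 2-cell to 4-cell and 56 to 63 throughout, and 7 from 4-cell to 8-cell, 12 in DESeq2, and 1 to 7 with a library left out. The difference between the 2-cell and 4-cell effects passed for 3 genes, 5 with DESeq2 size factors, 9 with library size alone, 8 under that stricter minimum, 5 with halved counts and 2 to 7 with a library left out. The difference between the 4-cell and 8-cell effects passed for 0 in every setting. Fewer features are tested under the stricter filter and after halving. For the other shifts the cause was not tested. The share of all genes tested that passed also moved. With library size alone it went from 14.1% to 24.4% in 2-cell embryos and from 10.8% to 9.57% in 4-cell embryos. Under the 1-count minimum it was 9.12% in 2-cell and 7.06% in 4-cell embryos, and in DESeq2 12.6% in 4-cell embryos. In 8-cell embryos it was 5.06%, with 4.29% under the 1-count minimum, 6.84% under the stricter one, 6.68% with halved counts and 7.18% in DESeq2. Between the last control stages it was 8.51%, and 11.7% in DESeq2. For the 2-cell to 4-cell difference it was 4.16%, and 6.24% with library size alone. With a library left out, the median log2 fold change of the genes described was -0.13 to 0.0054 at the 2-cell stage. It was -0.16 to -0.10 at the 4-cell stage and -0.20 to -0.14 at the 8-cell stage.

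With library size alone the number of genes below 0 went from 46 to 18 at the 2-cell stage, from 49 to 42 at the 4-cell stage, from 60 to 42 at the 8-cell stage and from 23 to 48 between the last control stages. Among the genes named by the rule, those that changed sign had not passed in the reported comparison. In the 2-cell comparison, Taf7 was 0.095 and Med13 0.28 with library size alone, Med13 0.0091 under the stricter minimum, and Med13 -0.078 to 0.035 with a library left out. In the 4-cell comparison with a library left out, Taf7 was -0.032 to 0.20, Taf9b -0.27 to 0.014 and Taf9 -0.77 to 0.015. In the 8-cell comparison Taf4 was -0.0058 in the common fit, and with a library left out Taf4 was -0.053 to 0.052, Taf9b -0.79 to 0.033 and Med12 -0.13 to 0.23. From 4-cell to 8-cell in control, Med12l was -0.13 and Taf7 -0.13 with library size alone, and with a library left out Taf7 was -0.013 to 0.19, Polr2a -0.18 to 0.063, Taf9b -0.080 to 0.74 and Med12l -0.095 to 0.30.

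Libraries with the same number did not deviate together (r = -0.0132, -0.000739 and 0.00736 at the 3 stages), so the number was not taken to pair them. With a replicate block 8 (2-cell), 15 (4-cell) and 11 (8-cell) genes passed, with 12.7%, 9.22% and 7.27% of all genes tested. Between control stages 60 and 6 passed, with 60.2% and 8.14% of all genes tested. For the differences 3 and 0 passed, with 4.05% and 0.616%. Under the block Polr2m at the 2-cell stage (adjusted p = 0.0821) and Taf3 (0.0592), Polr2i (0.0505) and Taf1d (0.0601) at the 4-cell stage did not pass. With 2 libraries a group, a change that did not pass may still be present. Genes with few counts, such as Taf9, Taf7l and Taf9b after the 2-cell stage, were the least precise.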

Other observations

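The subunits that belong to Pol I and Pol III alone, which make ribosomal and transfer RNA, were kept as a separate list of 15 genes. From the 2-cell to the 4-cell stage in control embryos 10 of 15 rose and 1 fell, with 30% and 31.9% of all genes tested. Their median was 0.79 on the log2 scale, and that of all genes was -0.033. In MERVL-KD embryos 5 of 15 were lower at the 2-cell stage, 4 of 15 at the 4-cell stage and 1 of 14 at the 8-cell stage, and 0 were higher, against 7.39%, 5.84% and 3.56% of all genes tested that were lower. Scaled to library size alone, 2-cell embryos lost 4 of the 5 calls. Polr3a kept its call there and at the 4-cell stage, while the call of Polr1d was lost at the 4-cell (adjusted p = 0.0942) and 8-cell stages (0.183), as it was with either control library of the stage left out. Polr3a, the catalytic subunit of Pol III, had 17.9 and 22.7 RPKM in control and 9.75 and 9.20 RPKM in MERVL-KD embryos at the 2-cell stage (fell by 1.01, adjusted p = 2.07e-05 in edgeR), and it fell by 0.70 at the 4-cell stage (adjusted p = 0.00074). Polr1a, the catalytic subunit of Pol I, fell by 0.62 (adjusted p = 0.00358) and Polr3b by 0.61 (adjusted p = 0.00735) at the 4-cell stage.

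In the list of the PAF complex, SSRP1 and TFIIS, 5 of 9 genes rose and 3 fell from the 2-cell to the 4-cell stage in control embryos. Of all genes tested 30% rose and 31.9% fell. In MERVL-KD embryos Cdc73 fell by 1.13 at the 2-cell stage (adjusted p = 3.6e-05) and by 0.79 at the 4-cell stage (adjusted p = 0.0016). Rtf1 rose by 0.58 (adjusted p = 0.000826) and Ctr9 by 0.53 (adjusted p = 0.00284) at the 2-cell stage. There 1 of 8 tested genes fell and 2 rose, with 7.39% of all genes tested lower and 6.7% higher.

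Of gene rows with a MERVL ASO match in introns alone, 69 of 148 tested were lower at the 2-cell stage and 4 were higher, with a median log2 fold change of -0.53 (of all genes tested 7.39% were lower). Nelfa, at -0.49, lay close to that median. At the 4-cell stage 63 of 139 were lower and 2 higher, with a median of -0.91 (of all genes tested 5.84% were lower), and Nelfa was at -0.65 and did not pass. At the 8-cell stage 50 of 133 were lower and 0 higher, with a median of -0.68 (of all genes tested 3.56% were lower), and Nelfa was again at -0.65. The part of such matches in the Nelfa values was not tested.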
